A study of Mus musculus with 36 samples.

Results

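Induced pluripotent stem (iPS) cells labelled iPS(KOS-ZERT2) were compared with v6.5 embryonic stem (ES) cells. The compared means come from 4 of the 36 arrays of the study, 2 of each cell, chosen by their labels and hybridised on 1 slide. The comparison covers all 33098 probes that could be tested. The iPS cells are labelled as clone #2, carry the transgene KOS-ZERT2, and have the same mixed C57Bl/6 and 129 background that the labels give to the ES cells. Both were grown without feeders on gelatin in ES medium with leukaemia inhibitory factor (LIF), and the labels name no doxycycline or tamoxifen for either. The other cells used here were mouse embryonic fibroblasts (MEFs), with 2 arrays in each group. Zscan4ERT2 MEFs carry the Zscan4ERT2 transgene and wild MEFs carry none. Both are from a cross of v6.5 cells, were grown in MEF medium, and are taken here without tamoxifen. Secondary MEFs, which the labels call clone #1 of KOS-ZERT2, were kept in ES medium with LIF for 1, 3 or 6 days. They had doxycycline at 1.5 µg/ml or none, and are taken here without tamoxifen unless stated. For the check of array position, cultures with tamoxifen at 200 nM and no doxycycline were also used. MEFs and pluripotent cells thus differ in medium as well as in cell type where wild MEFs are used. The iPS line is a single clone, and nothing in the labels makes the 2 samples of a group separate cultures. The p-values use 1 spread per probe, estimated between the 2 samples within each of the 18 groups on all 36 arrays. They cover that spread alone, and it may be technical. In bulk RNA, fewer cells of a type and less RNA per cell cannot be told apart.

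KOS stands for Klf4, Oct4 and Sox2, transcription factors that can return a fibroblast to a pluripotent state when they are expressed together. ERT2 is part of an altered oestrogen receptor, and a protein fused to it acts when a tamoxifen compound is bound. Zscan4 is a gene of the early embryo that is also expressed in a small, changing share of ES cells. Doxycycline switches on inducible transgenes, so secondary MEFs given doxycycline express the reprogramming factors again. A reprogrammed line can retain traces of the expression of its cell of origin, which is often called fibroblast memory, or can express genes that neither fibroblasts nor ES cells do. The comparison asks how far the iPS clone differed from ES cells, and how each difference related to the level in fibroblasts and to the response to doxycycline.

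Each array carried the sample in Cy3 and a common reference in Cy5, a pool of cell line RNA mixed with ES cell RNA. Values are log2 ratios of sample over reference, so 0 means the level of the reference, and a difference of 1 is 2-fold. The probes are 60 bases long and carry only the identifiers of the array design, such as Z00027416-1. Exact matching to RefSeq sequence placed 269 of 42006 probes, and 131 lay within 1 annotated gene on its strand. None of the pluripotency, imprinted, fibroblast, germ line or lineage genes listed for this comparison was among the genes named, so the identity of the cells could not be checked by their markers. No gene name is given to the other probes. Probes well above background made up 64.4% and 67.8% on the iPS arrays, against 71.8% and 67.6% on the ES arrays. With 2 arrays a group, precision is limited by their number.

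The iPS cells differed from the ES cells at 972 probes that were higher and 1716 that were lower, 2.94% and 5.18% of the probes tested and 8.12% together (limma, Benjamini-Hochberg adjusted p under 0.05). Most of the differences were small. Their median size was 0.29 on the log2 scale among the higher probes and 0.33 among the lower ones, and 39 probes in each direction differed at least 2-fold, 0.118% of those tested. The interquartile range of the difference between the group means was 0.152 over all probes, against 0.0980 between the 2 iPS arrays and 0.117 between the 2 ES arrays. Of the called probes, 968 of the higher and 1714 of the lower had iPS and ES arrays that did not overlap, where 57.3% of all tested probes had none. The reference channel of the same 4 arrays, which received the same RNA on each, gave 3 calls (0.00906%).

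**Figure D1:**
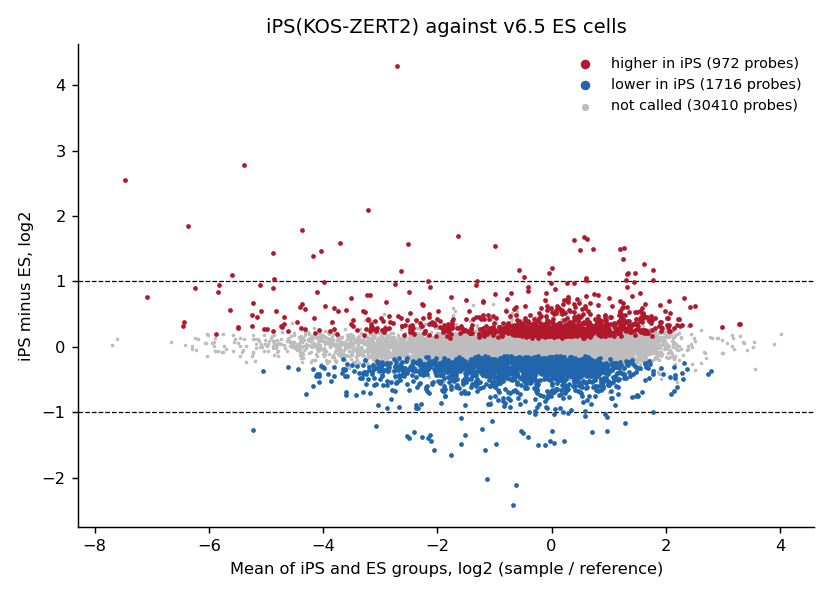
Each point is a probe, with the mean of the iPS and ES groups on the x axis and iPS minus ES on the y axis, both as log2 ratios; dashed lines mark a 2-fold difference. The 972 higher and 1716 lower probes are mostly small differences, and 39 in each direction lie beyond the dashed lines.

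The iPS arrays lay at positions 1 and 2 of the slide and the ES arrays at positions 3 and 4. Uninduced secondary MEFs without and with tamoxifen were laid out in the same way on 3 other slides, and there positions 1 and 2 against 3 and 4 gave 0 limma calls on days 1, 3 and 6 (0% each), although unadjusted p values under 0.05 were found at 2367, 824 and 2980 probes. In iPS against ES cells 6409 probes had such a value. Position and cell type still cannot be told apart on the slide that held both lines.

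Where probes that overlap in sequence were called, their differences mostly had the same sign. Among 784 pairs of tested probes in which at least 25 contiguous bases were shared, both members were higher in 27 pairs and both lower in 37, and in 0 pairs were they called in opposite directions. In 38 pairs 1 member was called, and in 35 of those the other member had the same sign. Neither member was called in 682 pairs, so a gap over all pairs compares mostly uncalled differences. The median absolute gap between the differences of 2 overlapping probes was 0.0426, and 0.0295 where both were called. The members of such a pair share sequence, on the same or the other strand, and are not independent. Whether they read the same transcript was not tested. The largest gap among pairs with both called was 0.588.

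The largest increase was at probe Z00027416-1. It had log2 ratios of -0.52 and -0.58 on the iPS arrays, against -4.89 and -4.80 on the ES arrays, a difference of 4.29 ± 0.06 (SE, limma adjusted p = 1.82e-23) or 19.6-fold. In fibroblasts it differed between lines. Wild MEFs had 0.36 and 0.46, while Zscan4ERT2 MEFs had -3.63 and -3.89. The Zscan4ERT2 MEFs were not well above background there, so their values are upper bounds. All secondary MEF groups, with and without doxycycline, had means between -0.96 and -0.87, near the iPS value. Probe Z00057363-1 had -3.96 and -4.03 in iPS cells and -6.88 and -6.67 in ES cells, a difference of 2.78 ± 0.08 (adjusted p = 1.48e-17). It was far higher in fibroblasts, at 2.94 and 2.84 in wild MEFs, and the iPS arrays lay above the ES arrays but well below every MEF array.

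The largest decrease was at probe Z00059689-1, with -1.48 and -2.29 in iPS cells and 0.75 and 0.31 in ES cells. The difference was -2.41 ± 0.32 (adjusted p = 9.74e-06). Wild MEFs had -3.53 and -3.46 but were not well above background there, so the MEF values are upper bounds. With Feature Extraction's own log ratio the difference was -2.63 but missed the threshold (adjusted p = 0.130). Probe Z00006600-1 had -1.65 and -1.70 in iPS cells and 0.60 and 0.29 in ES cells, a difference of -2.11 ± 0.10 (adjusted p = 3.26e-13). Its iPS values lay close to the wild MEF values of -1.85 and -1.71, which were not well above background, and no secondary MEF group mean was above -2.17.

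**Figure D2:**
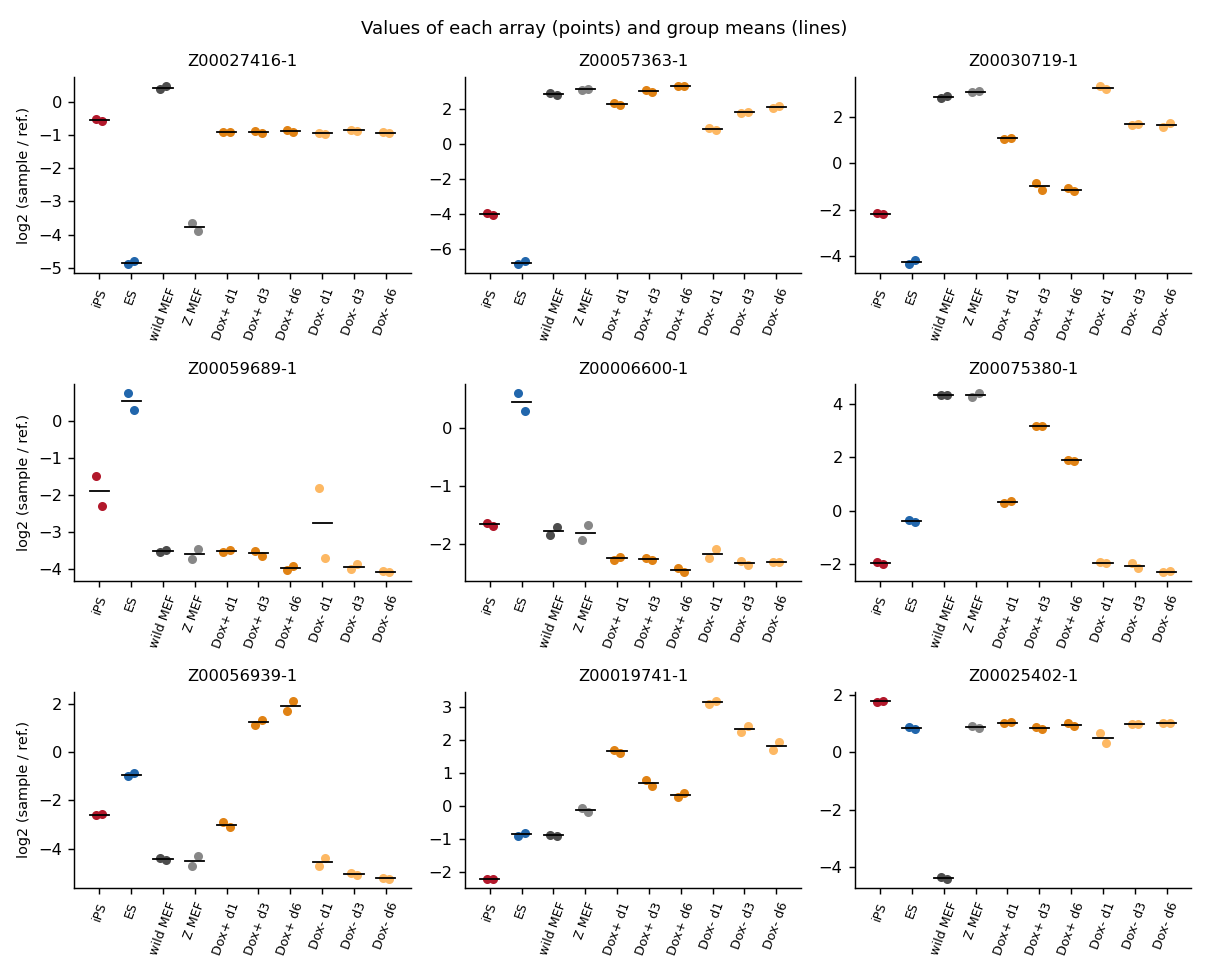
Each panel shows 1 probe, with log2 ratios of each array as points and group means as lines, for iPS, ES, wild MEF, Zscan4ERT2 MEF (Z MEF) and secondary MEF groups with and without doxycycline by day (d). The iPS points are apart from the ES points in every panel, and the fibroblast groups lie above, below or on both sides of them depending on the probe.

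Genes could be named for 8 of the called probes, 6 higher and 2 lower in iPS cells. Sequences are shown for the 3 with the largest differences, on the strand of the gene in RefSeq GRCm38.p6. Capitals mark the bases after the annotated start of Ntng1, which falls inside its probe. The probes of Bcl11a and Renbp lie far inside the annotated spans, and the tables used here do not give their exons.
Bcl11a, Z00023694-1, chr11:24172868-24172927, plus strand: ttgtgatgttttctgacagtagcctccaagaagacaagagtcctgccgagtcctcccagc
Ntng1, Z00041441-1, chr3:110143430-110143489, minus strand: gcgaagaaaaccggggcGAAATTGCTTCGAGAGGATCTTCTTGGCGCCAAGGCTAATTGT
Renbp, Z00075190-1, chrX:73922122-73922181, minus strand: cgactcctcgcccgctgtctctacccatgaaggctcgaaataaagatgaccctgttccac

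Bcl11a, a zinc finger transcription factor known for silencing fetal globin genes and for lymphoid and neural development, rose in the iPS cells. Its probe had 0.59 and 0.58 in iPS cells, against 0.02 and 0.01 in ES cells, a difference of 0.57 ± 0.05 (adjusted p = 4.02e-08). Wild MEFs had -0.41 and -0.42, below both lines, and the day 6 secondary MEFs had -1.15 and -1.19 with doxycycline, against 0.15 and 0.24 in cultures without it. Ntng1, which encodes netrin G1, a membrane-anchored protein of axon guidance, had 0.36 and 0.07 in iPS cells and -0.32 and -0.39 in ES cells, a difference of 0.57 ± 0.09 (adjusted p = 7.34e-05). It was highest in the fibroblasts, with 1.68 and 1.83 in wild MEFs. Its call was lost with local backgrounds as deposited, at the same difference of 0.57 (adjusted p = 0.337). Renbp, the renin-binding protein that is also an epimerase of acetylated amino sugars, had 0.26 and 0.32 in iPS cells and -0.06 and -0.02 in ES cells, a difference of 0.33 ± 0.05 (adjusted p = 9.17e-05), and 0.71 and 0.68 in wild MEFs.

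The other named genes differed less, and each lost its call under at least 1 alternative. Zbtb8a, a zinc finger gene of the BTB family, was higher in iPS cells by 0.42 ± 0.10 (adjusted p = 0.00718), the predicted gene Gm11423 by 0.27 ± 0.07 (adjusted p = 0.0150) and Ndufa9, a subunit of respiratory complex I, by 0.13 ± 0.04 (adjusted p = 0.0383). Slc22a20, an organic anion transporter, was lower by -0.33 ± 0.07 (adjusted p = 0.00223) and Abhd6, a lipase that degrades monoacylglycerols, by -0.16 ± 0.05 (adjusted p = 0.0251). Zbtb8a stood well below both lines in fibroblasts, with -1.23 and -1.22 in wild MEFs, against 1.13 and 1.17 in iPS cells and 0.81 and 0.66 in ES cells. Only windows around annotated starts and hairpins could be matched, so the named genes are no sample of pathways.

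Probes were then sorted by their level in wild MEFs. A probe was called MEF-high where wild MEFs were at least 4-fold above the mean of the iPS and ES groups, which held for 7.71% of probes, and MEF-low where they were at least 4-fold below it, which held for 3.57%. These classes carry no test. Of the 2553 MEF-high probes, 161 were higher in iPS cells (6.31%) and 333 lower (13%), against 2.94% and 5.18% of all probes. Their median difference was -0.027, against 0.00030 over all probes. Of the 1180 MEF-low probes, 115 were higher (9.75%) and 148 lower (12.5%), with a median of 0.0059. Among the 29364 probes in between, 2.37% were higher and 4.21% lower, a smaller share in both directions than in either class. The MEF-low counts depended on the background setting. With local backgrounds as deposited, 21 MEF-low probes were higher and 23 lower, against 415 higher and 894 lower calls over all probes, and the MEF-high class then held 99 higher and 210 lower. Sorting by the MEF ratio to the reference, which uses no iPS or ES array, gave 7.07% higher and 12.1% lower among the 750 probes at least 4-fold above the reference in wild MEFs, and 8.39% and 14.6% among the 596 at least 4-fold below it.

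Among the probes that differed at least 2-fold, the MEF classes were split as follows. Of the 39 higher probes 16 were MEF-high and 6 MEF-low, and of the 39 lower probes 10 were MEF-high and 10 MEF-low, with no test made of that contrast. The split depended on the MEF group. With day 3 secondary MEFs without doxycycline, kept in ES medium, in place of wild MEFs, 18 higher probes were MEF-high and 3 MEF-low. Of the lower probes 5 were then MEF-high and 15 MEF-low. Over all tested probes, 2144 were MEF-high and 1328 MEF-low by these cultures, against 2553 and 1180 by wild MEFs. The 16 that were MEF-high by wild MEFs include Z00030719-1 and Z00075103-1. Z00030719-1 had -2.16 and -2.18 in iPS cells and -4.36 and -4.16 in ES cells, a difference of 2.09 ± 0.09 (adjusted p = 7.32e-14), and 2.80 and 2.91 in wild MEFs. Z00075103-1 had -5.39 and -5.50 in iPS cells and -7.30 and -7.29 in ES cells, a difference of 1.85 ± 0.09 (adjusted p = 3.47e-13), and 2.59 and 2.72 in wild MEFs. At both probes the iPS values lay between the ES and MEF values but nearer to the ES cells.

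Over called probes of any size, most did not have iPS means between the wild MEF and ES means in that way. Over all higher probes the wild MEF mean lay above both iPS and ES means for 407, below both for 465 and between them for 100. Over all lower probes it was above both for 876, below both for 693 and between for 147. The wild MEF mean lay above both for 49.9% of all tested probes, against 41.9% of the higher and 51.0% of the lower ones. It lay below both for 43.4% of all tested probes, against 47.8% of the higher and 40.4% of the lower ones. Among probes at least 2-fold higher it was above both for 19 of 39 (48.7%). Among those at least 2-fold lower it was below both for 23 of 39 (59%). Both placements put the iPS mean between the wild MEF and ES means.

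**Figure D3:**
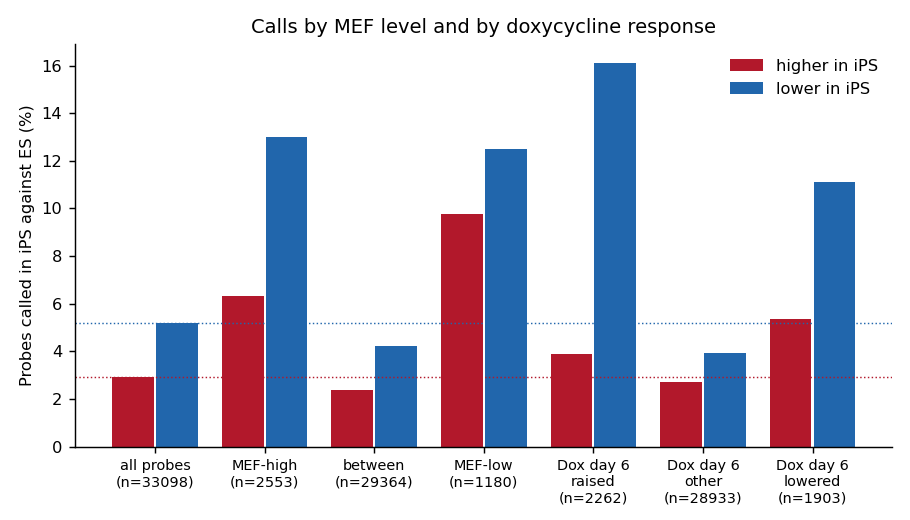
Bars give the percent of probes called higher or lower in iPS against ES cells within each class of wild MEF level and each class of day 6 doxycycline response, with the number of probes under each; dotted lines mark the percent over all probes, 2.94% and 5.18%. Lower calls reach 16.1% among probes raised by doxycycline, and both directions exceed the dotted lines in the MEF-high and MEF-low classes.

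MEF-high probes that were lower in iPS cells included Z00075380-1 and Z00053992-1. Z00075380-1 had -1.90 and -2.01 in iPS cells and -0.33 and -0.42 in ES cells, a difference of -1.58 ± 0.08 (adjusted p = 7.98e-13). Wild MEFs were higher, with 4.31 and 4.32. In secondary MEFs it had 3.16 and 3.16 on day 3 with doxycycline, against -1.96 and -2.15 without it. Uninduced secondary MEFs were thus as low as the iPS cells, although other MEFs were high. Z00053992-1 gave -1.48 ± 0.07 (adjusted p = 2.95e-13) for iPS against ES cells.

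Probe Z00024810-1 was the largest MEF-low decrease after Z00059689-1. It had -2.09 and -2.18 in iPS cells and -0.06 and -0.18 in ES cells, a difference of -2.01 ± 0.07 (adjusted p = 2.52e-15). The means of all MEF groups without tamoxifen were lower still, with doxycycline (-2.51, -3.12 and -3.71 on days 1, 3 and 6) as well as without it. Wild and Zscan4ERT2 MEFs were not well above background there, so their values are upper bounds. MEF-low increases were led by probes Z00072589-1 and Z00071988-1, which are described with their sequence below.

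In secondary MEFs on day 6, 6.83% of probes were at least 2-fold higher with doxycycline alone and 5.75% lower (limma adjusted p under 0.05). These probes are called raised and lowered. On each day, every doxycycline array sat on a separate slide from the untreated arrays it was compared with. Drug and slide thus cannot be told apart in these classes, and the p-values hold no spread between slides. The part of slide in the response of secondary MEFs was not tested. No array of those cultures enters iPS against ES, although the fits share an estimate of spread. Of 2262 raised probes, 365 were lower in iPS than in ES cells (16.1%) and 88 higher (3.89%), and the median difference was -0.050. Of 1903 lowered probes, 211 were lower (11.1%) and 102 higher (5.36%), and the median was -0.020. Raised probes made up 21.3% of all lower calls and 9.05% of all higher calls. On day 3, 8.09% of probes were raised and 4.48% lowered. The raised class of that day held 402 lower (15%) and 92 higher (3.44%) probes of 2678. Over all tested probes 5.18% were lower in iPS cells and 2.94% higher, so the shares of higher probes in the raised classes were near that of all probes.

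Probes that differed at least 2-fold were set against the same response, with no test of the contrast. Of the 39 that were lower in iPS cells, 18 were raised by doxycycline on day 6 and 1 was lowered. Of the 39 that were higher, 4 were raised and 12 lowered. On day 3 the counts were 20 raised and 1 lowered among the lower probes, against 3 raised and 14 lowered among the higher ones. On day 1 doxycycline raised 4.45% and lowered 2.16% of all probes, and the lower probes held 17 raised and 2 lowered, and the higher probes 3 raised and 10 lowered. Probes in these counts need not be separate signals. Z00006684-1 and Z00056939-1, for example, had means of -2.84 and -2.59 in iPS cells and -1.27 and -0.94 in ES cells. On day 6 with doxycycline they had 1.79 and 1.93. Whether such probes read the same transcript was not tested. The 39 lower probes had a median log2 ratio of -1.67 in iPS cells and 0.10 in ES cells. In secondary MEFs with doxycycline their median was 0.12, 0.53 and 0.40 on days 1, 3 and 6, against -1.72, -1.53 and -1.57 without it.

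**Figure D4:**
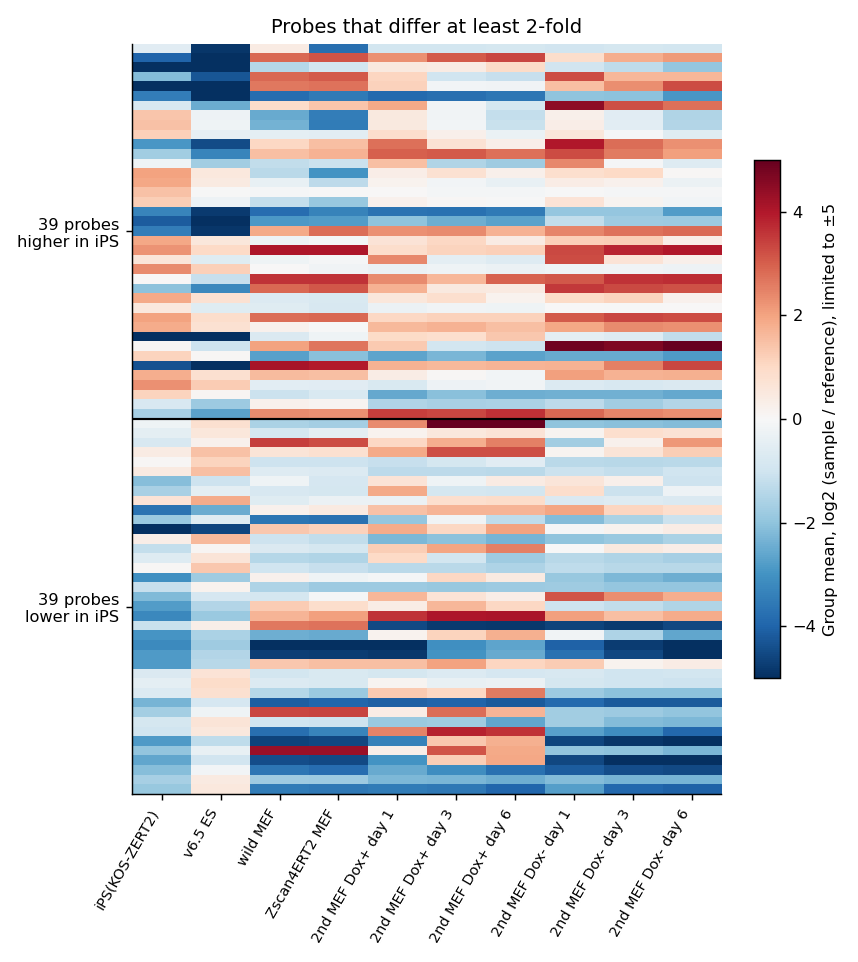
Rows are the 78 probes that differed at least 2-fold, ordered by the difference, and columns are groups; colour gives the group mean log2 ratio. Colours stop at ±5. Among the 39 lower probes, 18 are redder with doxycycline on day 6 by at least 2-fold and 1 is bluer, and among the 39 higher probes 4 are redder and 12 bluer.

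Probe Z00056939-1 shows the pattern of a lower probe that doxycycline raised. It had -2.60 and -2.58 in iPS cells and -0.998 and -0.882 in ES cells, a difference of -1.65 ± 0.14 (adjusted p = 1.07e-08). Secondary MEFs had 1.72 and 2.14 on day 6 with doxycycline, against -5.21 and -5.26 without it, a change of 7.16 (limma adjusted p = 5.57e-23), and the level with doxycycline exceeded both pluripotent lines. Wild MEFs had -4.38 and -4.46, below all of these except the uninduced cultures.

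Increases in iPS cells at probes that doxycycline lowered were led by Z00030719-1 and Z00075103-1. Z00030719-1 had -1.08 and -1.22 on day 6 with doxycycline, against 1.57 and 1.73 without it, and Z00075103-1 had -0.08 and -0.31, against 3.22 and 3.32. Their levels with doxycycline stayed above those of iPS cells. Not every probe fitted this contrast. Z00057363-1 and Z00070458-1 were higher in iPS cells and were raised by doxycycline, the second from a low level of -6.17 and -6.21 in iPS cells, against -8.78 and -8.71 in ES cells (difference 2.56 ± 0.07, adjusted p = 8.52e-18). Z00019741-1 was the only probe of the 39 lower ones that doxycycline lowered on day 6, and it had -2.20 and -2.19 in iPS cells, against -0.89 and -0.82 in ES cells (difference -1.34 ± 0.09, adjusted p = 3.65e-10).

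A run of 11 bases was shared by 6 probes that were all higher in the iPS cells. The run, AGCCTGGTGGT, was searched on both strands and occurs in 6 of the tested probes (0.0181%), each of them higher by 1.13 to 1.67. It is the run of this length shared by the largest number of the 39 probes at least 2-fold higher, 6 of them, so the run was chosen after their values were seen. They are shown as on the array, with the run, or ACCACCAGGCT where it lies on the other strand, in capitals; their chromosomes are not known here.
Z00072589-1: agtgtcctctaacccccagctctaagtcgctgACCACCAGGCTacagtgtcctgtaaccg
Z00071988-1: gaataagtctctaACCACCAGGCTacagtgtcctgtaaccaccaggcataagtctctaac
Z00063710-1: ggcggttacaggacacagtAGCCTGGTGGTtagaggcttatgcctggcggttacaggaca
Z00054742-1: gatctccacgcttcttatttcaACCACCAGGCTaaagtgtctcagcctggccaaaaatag
Z00060743-1: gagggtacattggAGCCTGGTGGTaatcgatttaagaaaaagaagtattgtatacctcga
Z00041299-1: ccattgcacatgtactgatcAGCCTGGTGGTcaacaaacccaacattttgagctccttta

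Z00072589-1 and Z00071988-1 overlap and moved as 1 signal, with 1.38 and 1.43 in iPS cells, against -0.27 and -0.27 in ES cells at Z00072589-1 (difference 1.67 ± 0.12, adjusted p = 3.65e-10). Z00054742-1 had 1.26 and 1.15 in iPS cells and -0.46 and -0.38 in ES cells (difference 1.63 ± 0.10, adjusted p = 2.92e-11). Z00063710-1 had 1.93 and 2.12, against 0.63 and 0.39 (difference 1.52 ± 0.30, adjusted p = 0.00165). Z00060743-1 had 1.85 and 1.98, against 0.64 and 0.50 (difference 1.35 ± 0.19, adjusted p = 2.55e-05), and Z00041299-1 had 1.88 and 1.93, against 0.76 and 0.79 (difference 1.13 ± 0.20, adjusted p = 0.000448). At each of the 6 probes both iPS arrays were above both ES arrays and above both wild MEF arrays. None of the 6 changed at least 2-fold with doxycycline on day 6. Around the run, the other strand of Z00063710-1 closely matches Z00071988-1. On the day 3 arrays without doxycycline, Z00063710-1 (1.22 and 0.74), Z00060743-1 (1.47 and 0.96) and Z00041299-1 (1.34 and 0.86) varied together. Whether the 6 probes are separate signals was not tested.

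Their levels in MEFs differed by group. Z00072589-1 had -2.57 and -2.43 in wild MEFs and -3.53 and -3.39 in Zscan4ERT2 MEFs. Secondary MEFs without doxycycline had 0.10 and 0.44 after 1 day, -0.49 and -0.68 after 3 days and -1.40 and -1.64 after 6 days. Each day was on a slide of its own. The day 6 mean without doxycycline was below the day 1 mean at all 6 probes, but the day 3 mean was above the day 1 mean at Z00063710-1 (0.98 against 0.83), Z00060743-1 (1.22 against 1.17) and Z00041299-1 (1.10 against 0.97). The shorter run GCCTGGTGGT occurs in 13 tested probes. Of these 7 were higher and 0 lower in iPS cells, among them the 6 above and Z00066049-1, by 0.42 ± 0.09 (adjusted p = 0.00336). The other probes with the shorter run had differences between -0.04 and 0.30, none of them called.

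**Figure D5:**
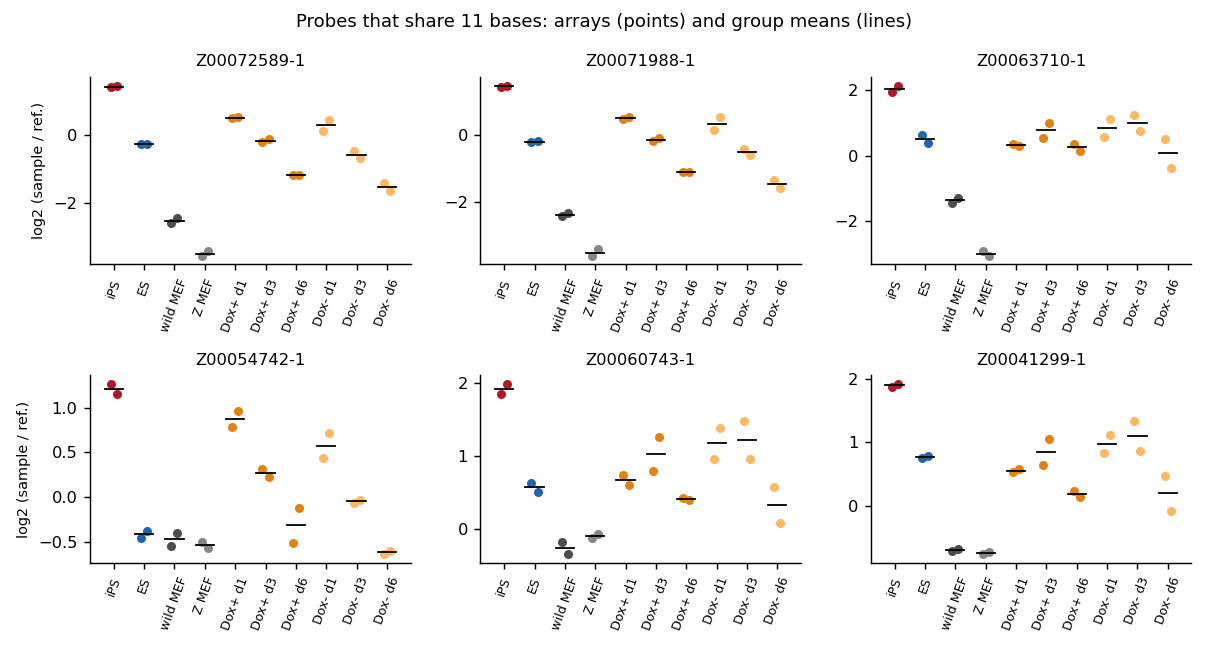
Each panel shows 1 of the 6 probes that share 11 bases, with log2 ratios of each array as points and group means as lines, in the groups of the other plot of single probes. In each panel the 2 iPS points are above every other point, and the ES points lie lower by 1.13 to 1.67 on average.

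Some differences between iPS and ES cells fell on probes at which the MEF lines themselves differed. Wild and Zscan4ERT2 MEFs were at least 8-fold apart at 8 tested probes, and 6 of these were higher in iPS than in ES cells and 0 lower, against 2.94% and 5.18% of all probes. This set was chosen after its values were seen. At 4 of the 6, wild MEFs were the low group and were not well above background. Z00064853-1 had 0.49 and 0.52 in iPS cells, against -0.33 and -0.43 in ES cells (difference 0.88 ± 0.08, adjusted p = 5.01e-08), with -5.07 and -5.13 in wild MEFs and 1.29 and 1.39 in Zscan4ERT2 MEFs. Z00025402-1 had 1.76 and 1.81, against 0.89 and 0.83 (difference 0.92 ± 0.08, adjusted p = 8.93e-09), with -4.33 and -4.40 in wild MEFs. Z00031814-1 was higher by 0.82 ± 0.10 (adjusted p = 2.78e-06) and Z00063386-1 by 0.77 ± 0.06 (adjusted p = 7.86e-09).

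At these 4 probes every secondary MEF group had a mean above 0, so only wild MEFs stood apart. Their calls were lost with local backgrounds as deposited, where the differences were unchanged to 2 decimals and the adjusted p values lay between 0.274 and 0.446. The other 2 of the 6, Z00027416-1 and Z00016441-1, were high in wild MEFs and low in Zscan4ERT2 MEFs, which were not well above background at either probe. Z00016441-1 had -4.86 and -5.01 in iPS cells, against -5.47 and -5.30 in ES cells (difference 0.45 ± 0.10, adjusted p = 0.00414), and 1.21 and 1.37 in wild MEFs, so its pluripotent levels were low in both lines.

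Few called probes were well above background in only 1 of the lines, and most of their differences were under 2-fold. Among the higher probes 16 were well above background on both iPS arrays and on neither ES array. These 16 differed by 0.29 to 1.49, with a median of 0.51, and 10 of them were below background on both wild MEF arrays. Among the lower probes 34 were well above background on both ES arrays and on neither iPS array. These 34 differed in size by 0.20 to 0.60, with a median of 0.32, and 19 of them were below background on both wild MEF arrays. Of all 33098 tested probes, 8273 were below background on both wild MEF arrays. Over all tested probes, 25 were above background in iPS cells alone and 502 in ES cells alone, so that most of the 502 were not called. The arrays differed in the share of probes above background, as given above, and its part in that imbalance was not tested. The median GC content of the probes was 43.3% among both higher and lower probes and 45.0% over all tested probes.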

How the data were processed

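Spots on 36 2-colour Agilent arrays were read by Feature Extraction, version 9.5.1.1 per the file headers. Of its deposited columns, the mean signal intensity and the median background intensity around it were used, without normalization. Feature Extraction's deposited log10 ratio and the series matrix, read as log10 values, served as alternatives. Outlying local backgrounds were replaced by the array median, limma's normexp was applied with an offset of 50, and loess was run on the ratios array by array. Spots of a probe were averaged and dim probes removed (8907 of 42006). lmFit gave each group its own mean over all arrays, with degrees of freedom of 18 (residual) and 5.05 (prior), then eBayes, two-sided, with Benjamini-Hochberg adjustment, and was tested on simulated data. R 4.3.3 and limma 3.58.1 were used. Members, lists and tests were chosen with earlier results of these data known. Named by rule were the 2 largest increases and decreases among called probes with groups that did not overlap, and called probes matched to 1 gene. The leading probes of each MEF and doxycycline class, overlapping probes, probes sharing a run of bases and probes that differ between MEF lines were chosen after their values were seen. Replicate numbers are shared by the labels, but the deviations of same-numbered iPS and ES arrays correlated at -0.0025. Gene lists and cell type markers could not be matched. Alternatives covered background, ratio, filter, arrays, replicates, MEF group, fold and day.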

Additional observations from a re-analysis of the deposited data

How the results depend on the processing

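The counts of at least 2-fold probes, 39 in each direction, lay between 33 and 50 under 13 alternatives, but rose to 139 higher and 238 lower with Feature Extraction's ratio and to 83 and 158 with the series matrix. With local backgrounds as deposited, calls fell to 415 higher and 894 lower, with 99 and 210 in the MEF-high, 21 and 23 in the MEF-low, 37 and 149 in the doxycycline-raised and 57 and 117 in the doxycycline-lowered class; the cause was not tested. Without the 2 arrays with outlying backgrounds calls were 941 and 1666. The sample channel alone gave 788 higher and 1105 lower. A 2-fold limit gave 252 higher and 607 lower MEF-high and 253 and 341 MEF-low probes. On day 1 the doxycycline-raised class held 53 higher and the lowered class 63 higher and 93 lower probes. Leaving out 1 array gave 429 to 635 higher and 947 to 1260 lower calls, 39 to 50 and 40 to 44 at least 2-fold, 93 to 120 and 190 to 269 MEF-high, 53 to 89 and 99 to 116 MEF-low, 47 to 65 and 222 to 292 doxycycline-raised, and 63 to 74 and 114 to 163 doxycycline-lowered probes, with the lone array assumed to vary like the others. With the replicate block calls were 973 and 1696, and it changed no call of a named probe. Slide as a random block gave no estimate, because each group lies on 1 slide. Gene lists could not be formed, so their alternatives were not run. No probe named in the text reversed.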
